A study of Mus musculus with 24 samples.

Results

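The genes described here are the ADAM, ADAMTS, ADAMTS-like and matrix metalloproteinase (MMP) families and their tissue inhibitors (TIMPs), in mouse otocyst epithelium, where the otocyst is the vesicle that becomes the inner ear. Members are the rows of the count table whose mouse symbol, found through the Ensembl identifier, is Adam, Adamts, Adamtsl or Mmp followed by a number, together with the Timp genes. The rule found 48 of 15736 genes: 13 Adam, 18 Adamts, 4 Adamtsl, 10 Mmp and 3 Timp genes. A further 35 protein-coding genes of the annotation that fit these names, Timp4 among them, were not analysed here. Each litter gave 2 pools, whose poly(A) RNA was sequenced with strand kept. The con pools were Rosa26rtTA/+ embryos, which carry the doxycycline-dependent activator rtTA driven from the Rosa26 locus and no transgene. The R2b pools were Rosa26rtTA/+;Tg(tetO-s(dn)Fgfr2b)/+ embryos, in which doxycycline also induces a secreted dominant-negative FGFR2b, a receptor fragment that traps FGF ligands. Con and R2b embryos came from the same pregnant females, all of which were injected with doxycycline (1.5 mg/kg) and then fed chow with 200 mg/kg of it. Exposure began at stage E9.75 and lasted 12 hours (E9.75+12h, 3 litters), or ran for 24 hours from E9.25 (E9.25+24h, 4 litters) or for 24 hours from E10.25 (E10.25+24h, 4 litters), so the first 2 ended at E10.25 and the third at E11.25. They are called here after 12 hours, after 24 hours and at E11.25, and the first 2 the earlier exposures. A pool mixes the otocysts of several embryos, and Rosa26 is active in most cell types, so the trap is not limited to otic cells.

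ADAM proteins are membrane-anchored and cut other membrane proteins near the cell surface, which releases growth factors and starts Notch signalling. ADAMTS proteins are secreted and cut proteoglycans, procollagens and microfibril proteins, and the ADAMTS-like proteins share their matrix-binding parts but have no protease domain. MMPs cut matrix proteins and each other, either as secreted enzymes or bound to the membrane, and TIMPs block MMPs and some ADAM and ADAMTS enzymes. An otocyst lies on a basement membrane within periotic mesenchyme, and its shaping involves turnover of that matrix.

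Library totals were 18.7 to 25.8 M counts after 12 hours, 19.3 to 22.5 M after 24 hours and 19.3 to 28.2 M at E11.25. Values are CPM, counts divided by the library total in M, scaled for library composition. The secreted trap carries an immunoglobulin constant region, and Ighg1 reads therefore mark the transgene. Ighg1 had 1 to 36 counts in every con library of the 2 exposures ending at E10.25 and 19414 to 76096 in every R2b library. At E11.25 the con label carried 15754, 28, 5106 and 16 Ighg1 counts in litters 1 to 4, and the R2b label 1504, 25248, 23658 and 19155. Litter 1 therefore goes against its labels and the con library of litter 3 holds transgene reads, and results of that exposure are given with and without those litters. The 12 otic epithelium markers (Pax2, Sox10, Epcam and others) summed to 2836 to 8767 CPM in every library, against 99.9 to 1424 CPM for 12 mesenchyme markers.

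The proteases of highest level were of the membrane-bound kind. Levels are comparable between genes only per length, so they are given here as mean CPM per kilobase of exon in the con libraries after 24 hours (SD, n = 4). Adam10, the sheddase of Notch receptors and cadherins, was highest at 47.5 ± 2.85. Next came the membrane-type enzymes Mmp14 at 30.3 ± 4.30 and Mmp15 at 22.6 ± 1.92, the secreted Mmp11 at 21.6 ± 3.59 and the inhibitor Timp2 at 20.0 ± 1.86. Adam10 lay above every other member in every library, and Mmp14 above Mmp15, while Mmp15, Mmp11 and Timp2 overlapped. Adam9 followed at 16.5 ± 0.593, Mmp2 at 15.0 ± 10.35 and Adam17, the sheddase of TNF and EGF-receptor ligands, at 14.3 ± 0.678. Among the secreted ADAMTS enzymes, Adamts9 at 11.5 ± 0.719 and Adamts7 at 11.4 ± 0.750 were highest. At the low end the procollagen peptidase Adamts2 stood at 0.0660 ± 0.0479, Adamtsl2 at 0.0928 ± 0.0871 and Adamts8 at 0.122 ± 0.0221. Mmp2 had the widest range of the genes above 10, with its highest value in litter 4.

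**Figure D1:**
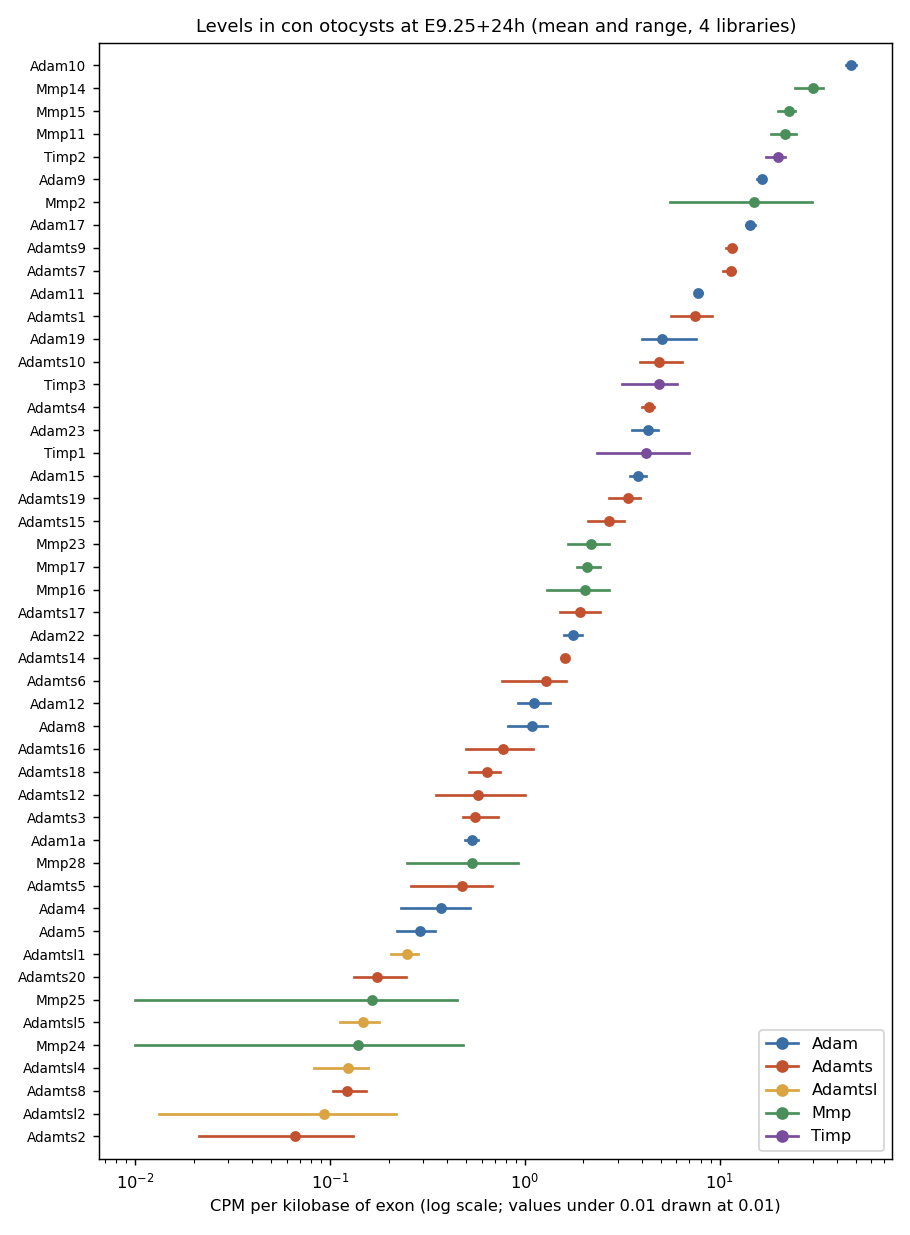
Level of each of the 48 members in con otocysts after 24 hours, in CPM per kilobase of exon on a log axis; points are means and lines the range of 4 libraries, coloured by family. Adam10 is at the top at 47.5, Mmp14 follows at 30.3, and Adamts2 is lowest at 0.0660.

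The comparisons after 12 and 24 hours ask which transcripts differ once FGFR2b ligands have been trapped for a shorter or a longer time up to the same stage. Called means an adjusted p under 0.05 in edgeR's quasi-likelihood test with Benjamini-Hochberg adjustment over all genes tested (FDR). Fold changes are R2b over con on the log2 scale. After 12 hours 13 of 45 tested members were called (28.9%), 11 higher and 2 lower, against 20.0% of all genes (10.20% higher, 9.78% lower). Their median log2 fold change was 0.23, against 0.011 over all genes. After 24 hours 15 of 47 tested members were called (31.9%), 12 higher and 3 lower, against 15.6% of all genes (9.09% higher, 6.50% lower). The median there was 0.037, against -0.010 over all genes. Without the members that passed the filter on low counts only through their R2b libraries, 4 after 12 hours and 2 after 24 hours, 12 of 41 (29.3%) and 14 of 45 (31.1%) were called. In all, 19 members were called in either exposure. Among 44 members with a test in each, 9 had calls in 1 direction both times and none in opposite directions, where 8.86% of all genes were called the same way in both. The rises were those of Adamts15, Adamts17, Adam22, Mmp14, Mmp15, Mmp23 and Timp2, and the falls those of Adam12 and Adamts1. No member was called at E11.25, where 0% of all genes were. Groups that do not overlap, given below gene by gene, were common in the table. In CPM without the scaling for library composition, 15 of 48 members were wholly higher and 4 wholly lower after 12 hours, against 38.0% of all genes. After 24 hours 13 were wholly higher and 3 wholly lower, against 21.9% of all genes.

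The counts of called members moved with single litters. With the litter as a block the 12-hour count fell to 7 members (11.9% of all genes), namely Adamts15, Adamts17, Mmp11, Adam22, Mmp14, Adam12 and Adamts1, and the 24-hour count rose to 25 (40.6% of all genes). In the 12-hour exposure pools of the same litter did not vary together across genes, so the block there rests on the labels alone. Without the block, leaving out litter 1 or litter 3 after 12 hours gave 3 and 8 calls, and leaving out litter 1, 2 or 3 after 24 hours gave 3, 2 and 7. Single libraries also counted: the 12-hour total fell to 7 when the con pool of litter 2 or the R2b pool of litter 1 was left out and to 8 for the R2b pool of litter 3, and the 24-hour total fell to 8 and 9 for the R2b pools of litters 1 and 2. The shares of all genes are not set beside these counts, so they do not show a loss particular to the members. The range over all fits that leave out a litter or pool is given in the last section. Leaving out 1 pool ended calls of Adam23, Adamts12, Mmp15, Mmp23, Mmp24 and Timp2 after 12 hours and of Adam9, Adamts1, Adamts7, Adamts14, Adamts17, Adamtsl5, Mmp15 and Mmp23 after 24 hours. Adamts15 was called in all of these fits, and Adam12 in all of those after 24 hours.

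**Figure D2:**
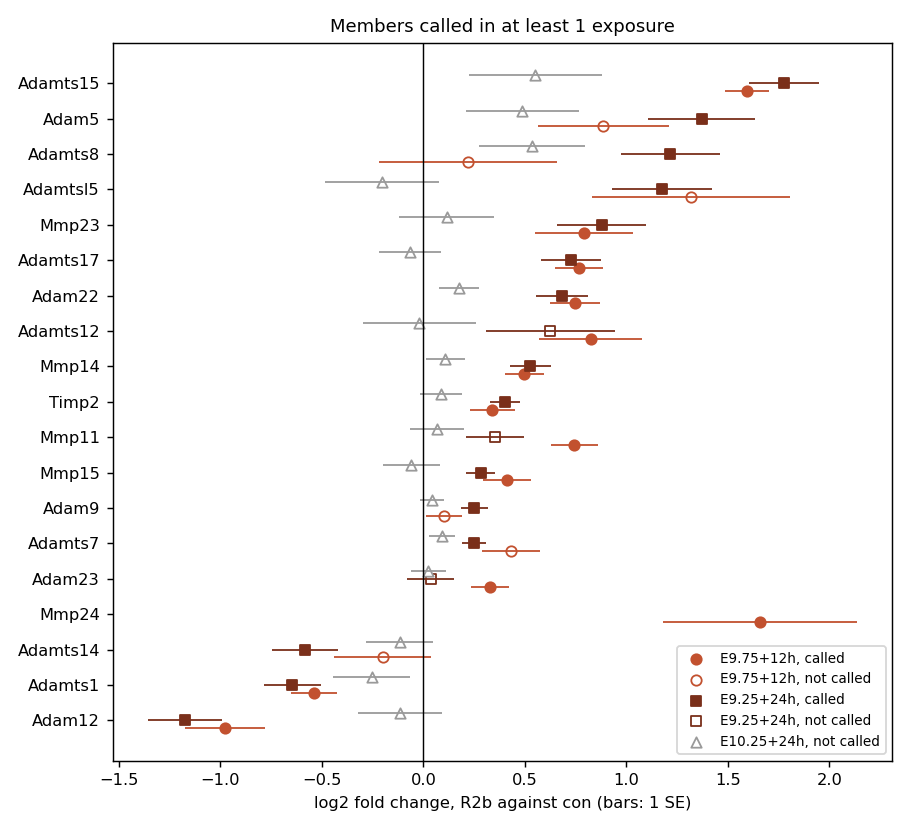
Log2 fold change of R2b against con, with 1 SE to each side, for the 19 members called in at least 1 exposure; filled symbols were called and open symbols were not. The 9 members called in both earlier exposures lie on the same side of 0 in each, and the E11.25 values lie closer to 0 in every one of those 9. These E11.25 values include litter 1, whose transgene reads go against its labels. Without litter 1 Adamts1 was at -0.56, no closer to 0 than its -0.54 after 12 hours, while the others stayed closer.

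By family, after 12 hours 2 Adam genes were called higher and 1 lower of 12 tested (25.0%), 3 Adamts genes higher and 1 lower of 18 (22.2%), and none of 3 Adamtsl genes, where 20.0% of all genes were called. In the Mmp family 5 of 9 tested genes were called higher and none lower. One of the 5, Mmp24, passed the filter on low counts only through its R2b libraries, and with the litter block 2 Mmp genes were called, Mmp11 and Mmp14. After 24 hours, against 15.6% of all genes, 3 Adam genes were higher and 1 lower of 13 (30.8%), 4 Adamts genes higher and 2 lower of 18 (33.3%), 1 of 4 Adamtsl genes higher and 3 of 9 Mmp genes higher. Of the 18 Adamts genes, Adamts8, called higher, and Adamts2, not called, passed the filter after 24 hours only through their R2b libraries. With the block, which called 40.6% of all genes, the 24-hour counts were 11 Adamts genes and 6 Mmp genes. Of the 3 Timp genes 1 was called higher in each exposure.

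Promoter sequence is shown for 3 members that changed in both earlier exposures, 2 higher and 1 lower, to set their letters side by side. They are the 250 bases before the RefSeq start of each gene (GRCm38.p6), printed in the direction of transcription. Capitals mark GGGCGG (the GC box, bound by Sp1) and TATAAA (the TATA box) on the printed strand. Adamts17 is at chr7:66839485-66839734 on the plus strand, Mmp14 at chr14:54431348-54431597 on the plus strand and Adamts1 at chr16:85803114-85803363 on the minus strand.
Adamts17: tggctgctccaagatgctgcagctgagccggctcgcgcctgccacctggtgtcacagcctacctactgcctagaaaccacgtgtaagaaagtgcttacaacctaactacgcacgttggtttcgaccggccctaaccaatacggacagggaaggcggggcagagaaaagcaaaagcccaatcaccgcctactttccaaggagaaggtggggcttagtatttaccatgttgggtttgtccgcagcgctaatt
Mmp14: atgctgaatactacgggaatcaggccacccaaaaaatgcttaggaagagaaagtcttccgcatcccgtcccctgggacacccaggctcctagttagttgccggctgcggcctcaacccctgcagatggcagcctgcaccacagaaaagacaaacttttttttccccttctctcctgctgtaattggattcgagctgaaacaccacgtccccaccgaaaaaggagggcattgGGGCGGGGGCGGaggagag
Adamts1: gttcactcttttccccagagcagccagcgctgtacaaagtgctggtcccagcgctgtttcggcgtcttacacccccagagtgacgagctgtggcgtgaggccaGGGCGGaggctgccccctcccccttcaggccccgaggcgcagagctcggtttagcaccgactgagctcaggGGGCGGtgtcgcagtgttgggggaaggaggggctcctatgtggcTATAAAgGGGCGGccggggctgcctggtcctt
The Adamts1 promoter holds 3 GC boxes and 1 TATA box, that of Mmp14 holds 2 GC boxes next to each other, and that of Adamts17 holds no match to any motif searched. RefSeq entries were found for 30 of the 48 members, with none for Adamts15 and Adam12. On either strand, CCGGAA (the core bound by ETS factors, which include targets of FGF signalling) was in 3 of the 30 promoters, those of Adam15, Adam17 and Adamts14, against 21.2% of 11428 promoters of the genes in the table. The AP-1 letters TGANTCA were in 0 of 30, against 4.0%. The GC box was in 23 of 30, against 59.5%, and TATAAA in 2 of 30, those of Adamts1 and Adamtsl2, against 6.1%. These are descriptions of letters in a fixed window.

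Adamts15 gave the largest rise among members called in both exposures. It encodes a secreted proteoglycanase that cuts versican and aggrecan, and lies on the minus strand of chromosome 9 (30899155 to 30922452, GRCm38). After 12 hours it stood at 27.3, 29.1 and 27.0 CPM in con litters 1 to 3 and at 84.3, 75.1 and 89.1 CPM in R2b. After 24 hours it stood at 31.8, 33.4, 21.9 and 25.2 in con and 107, 116, 76.5 and 84.5 CPM in R2b. Every R2b library lay above every con library in both exposures, by 1.60 (SE 0.11, edgeR FDR 6.76e-05) after 12 hours and 1.78 (SE 0.17, edgeR FDR 0.000798) after 24 hours. At E11.25 the libraries labelled con gave 42.7, 29.2, 31.4 and 26.9 CPM and those labelled R2b 23.5, 79.7, 37.3 and 49.9 CPM. There the groups overlapped, since litter 1 was lower in the library labelled R2b and litters 2 to 4 were higher.

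Adamts8, a further proteoglycanase, starts 20.1 kb from Adamts15 and is read in the opposite direction, with no gene of the table between them. It was called higher after 24 hours by 1.22 (SE 0.24, edgeR FDR 0.0140), from 0.564 ± 0.102 to 1.32 ± 0.287 CPM (SD, n = 4), and after 12 hours its fold change was 0.22 (edgeR FDR 0.756). Its con libraries held a mean of only 11.5 counts after 24 hours, so that it passed the filter on low counts only through its R2b libraries. The call was lost without litter 1, 2 or 3, and the difference between exposures was not called.

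Adamts1, a proteoglycanase that cuts versican and lies on chromosome 16 (85793827 to 85803113, minus strand), moved the other way. Its con libraries after 12 hours gave 39.0, 35.0 and 38.1 CPM and its R2b libraries 27.1, 24.7 and 24.2 CPM. After 24 hours con gave 43.3, 48.5, 30.0 and 36.3 CPM and R2b 24.01, 23.7, 26.9 and 26.1 CPM. The groups did not overlap in either exposure, and the falls were -0.54 (SE 0.11, edgeR FDR 0.00816) and -0.65 (SE 0.14, edgeR FDR 0.0182). The call was lost without litter 1 or litter 3 after 12 hours, and after 24 hours without litter 1, litter 2 or the R2b pool of either. At E11.25 the libraries labelled con gave 32.8, 49.6, 43.7 and 52.5 CPM and those labelled R2b 50.9, 30.4, 34.8 and 32.4 CPM, lower in R2b in litters 2 to 4 and higher in litter 1. Adamts5, the neighbour 53.1 kb away and also a proteoglycanase, was at 5.12 ± 2.48 in con and 8.22 ± 7.15 CPM in R2b after 24 hours and was called in neither exposure. The other proteoglycanases Adamts4, Adamts9 and Adamts20 were called in neither, with fold changes of -0.15 to 0.36.

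Adamts17, on chromosome 7 (66839735 to 67153171, plus strand), belongs with Adamts19 to the less studied pair of the family. In the con libraries after 12 hours it was at 20.4, 21.3 and 23.3 CPM, and in R2b at 34.0, 36.5 and 38.5 CPM. After 24 hours the con values were 18.8, 16.0, 11.7 and 13.3 CPM and the R2b values 28.0, 24.9, 22.6 and 23.1 CPM. No R2b value was as low as a con value of the same exposure, and the rises were 0.77 (SE 0.12, edgeR FDR 0.00171) and 0.73 (SE 0.15, edgeR FDR 0.0149). The 24-hour call was lost without litter 2 or without the R2b pool of litter 1. At E11.25 con was higher than in the earlier exposures, at 49.96, 35.0, 34.8 and 29.6 CPM, and R2b was at 36.5, 31.2, 35.9 and 38.2 CPM, with the groups overlapping. Its pair Adamts19 went the other way without a call, by -0.31 (edgeR FDR 0.0710) and -0.31 (edgeR FDR 0.167). It was lower in 3 of 3 and 4 of 4 litters, and with the litter block the 24-hour fall was called (edgeR FDR 0.000535).

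The procollagen peptidases Adamts2, Adamts3 and Adamts14 trim the amino end of fibrillar collagens. Adamts14 fell after 24 hours by -0.58 (SE 0.16, edgeR FDR 0.0416), from 8.32 ± 0.343 to 5.53 ± 1.19 CPM (SD, n = 4), but the call was lost when any 1 litter was left out. Adamts3 was at -0.77 (edgeR FDR 0.0830) and 0.054 (edgeR FDR 0.877), and Adamts2 at 0.36 (edgeR FDR 0.635) and 0.74 (edgeR FDR 0.365). Adamts7 and Adamts12, which cut cartilage oligomeric matrix protein, were each called higher once. Adamts7 rose after 24 hours by 0.25 (SE 0.059, edgeR FDR 0.0248), a call lost without litter 1, 2 or 3, and had 0.43 (edgeR FDR 0.0536) after 12 hours. Adamts12 rose after 12 hours by 0.82 (SE 0.25, edgeR FDR 0.0414), a call lost with the litter block (edgeR FDR 0.0831) and when any 1 litter was left out, and had 0.63 (edgeR FDR 0.208) after 24 hours. Of the remaining Adamts genes, Adamts6, Adamts10, Adamts16 and Adamts18 were called in neither exposure, with fold changes from -0.66 for Adamts16 to 0.37 for Adamts6. With the block after 24 hours, Adamts12 (edgeR FDR 0.00249) and Adamts2 (0.0415) were also called higher, and Adamts10 (0.00985) and Adamts16 (0.00741) lower. Of the ADAMTS-like genes, Adamtsl5 rose after 24 hours by 1.17 (SE 0.25, edgeR FDR 0.0168), from 0.699 ± 0.145 to 1.58 ± 0.345 CPM (SD, n = 4), lost without litter 1, 2 or 3, and was at 1.32 (edgeR FDR 0.0784) after 12 hours. Adamtsl1, Adamtsl2 and Adamtsl4 were not called, and Adamtsl2 was too low to test after 12 hours.

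**Figure D3:**
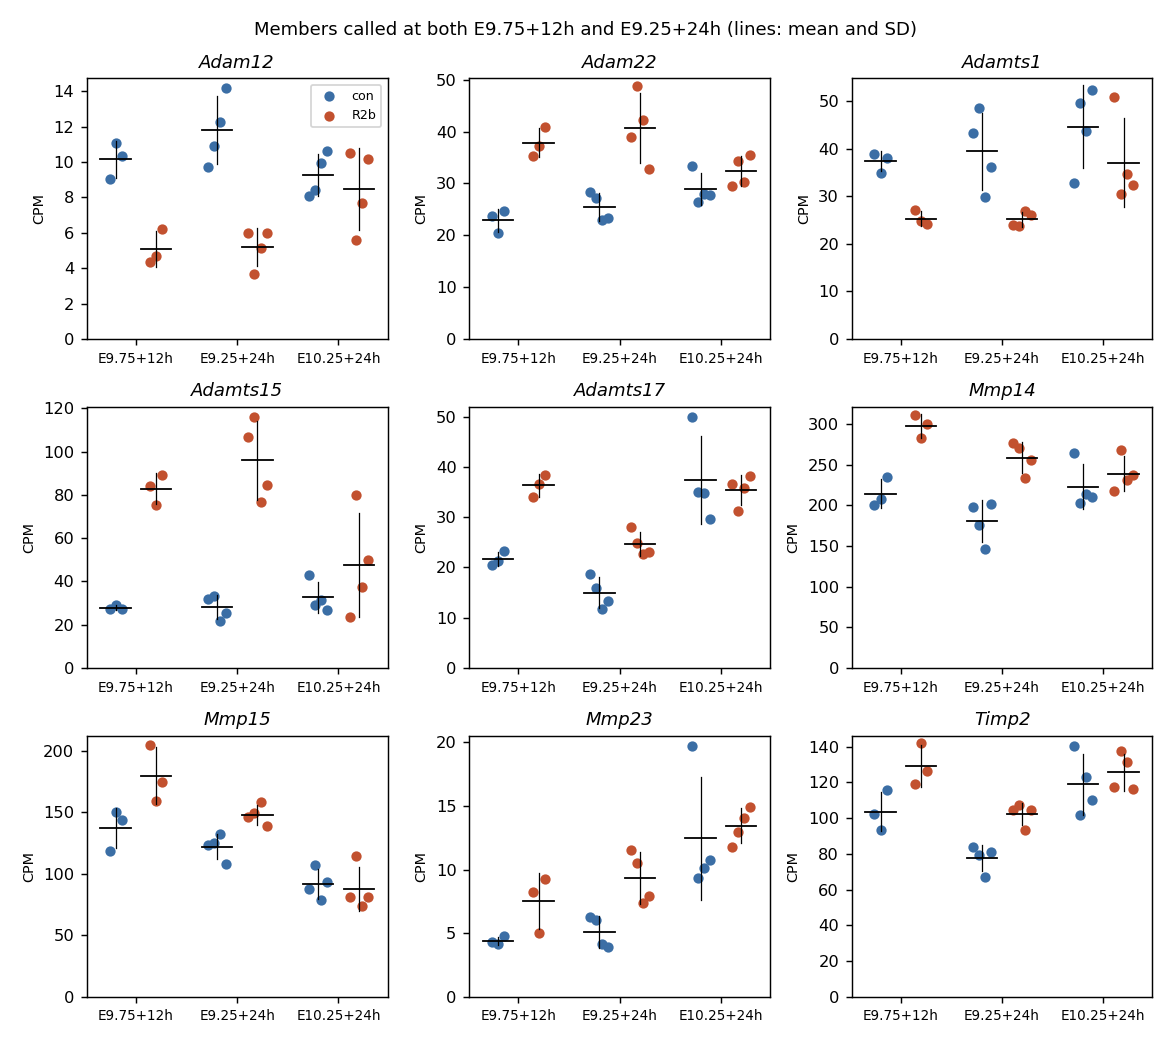
CPM in every library of the 9 members called after both 12 and 24 hours; points are litters, blue for libraries labelled con and orange for those labelled R2b, with the mean and SD as lines. For Adamts15 the R2b libraries sit between 75.1 and 116 CPM in the 2 earlier exposures and the con libraries between 21.9 and 33.4 CPM.

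Adam12, an active ADAM protease known from mesenchymal and muscle cells, lies on chromosome 7 (133883199 to 134232146, minus strand) and was the member with the largest fall. It was at 9.04, 11.1 and 10.4 in con and 4.35, 4.699 and 6.23 CPM in R2b after 12 hours. After 24 hours the values were 9.73, 10.9, 12.3 and 14.2 CPM and 5.99, 3.69, 5.15 and 5.97 CPM. Con and R2b did not overlap in either, and the falls were -0.98 (SE 0.20, edgeR FDR 0.00641) and -1.17 (SE 0.18, edgeR FDR 0.00521). The 12-hour call was lost without litter 1. At E11.25 the libraries labelled con gave 8.10, 8.44, 9.94 and 10.6 CPM and those labelled R2b 10.5, 5.58, 7.70 and 10.18 CPM, with the groups overlapping. Adam19, a close relative, was at 0.036 (edgeR FDR 0.872) and -0.58 (edgeR FDR 0.160), and was called lower after 24 hours with the litter block (edgeR FDR 0.000137).

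Adam22, on chromosome 5 (8072352 to 8368160, minus strand), has no protease activity and serves as a neuronal receptor for LGI proteins, as do Adam23 and Adam11. Its values after 12 hours were 23.7, 20.4 and 24.6 in con and 35.4, 37.3 and 40.9 CPM in R2b. After 24 hours they were 28.4, 27.2, 22.9 and 23.3 and 39.0, 48.8, 42.2 and 32.8 CPM. All R2b libraries were above all con libraries, with rises of 0.75 (SE 0.12, edgeR FDR 0.00243) and 0.68 (SE 0.13, edgeR FDR 0.0122), and the second call was lost without litter 1, 2 or 3. At E11.25 the libraries labelled con were at 33.4, 26.3, 28.0 and 27.8 CPM and those labelled R2b at 29.5, 34.4, 30.4 and 35.5 CPM. Adam23 rose after 12 hours by 0.33 (SE 0.093, edgeR FDR 0.0312), which the block did not keep (edgeR FDR 0.0739) nor did leaving out litter 1 or litter 3, and was at 0.037 (edgeR FDR 0.857) after 24 hours. Adam11 was at 0.40 (edgeR FDR 0.0658) and -0.092 (edgeR FDR 0.351).

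The main sheddases were not called in either exposure. Adam10 was at 292, 270.2 and 278 in con and 219, 296 and 221 CPM in R2b after 12 hours, and at 247, 243, 219 and 223 and 223, 223, 204 and 233 CPM after 24 hours. Its fold changes were -0.17 (SE 0.12, edgeR FDR 0.343) and -0.073 (SE 0.059, edgeR FDR 0.428). At E11.25 it was at 263, 256, 264 and 266 CPM in libraries labelled con and 267, 253, 255 and 261 CPM in those labelled R2b. Adam17 was at 83.9, 87.7 and 86.0 and 74.3, 87.0 and 76.6 CPM after 12 hours and at 97.8, 102, 100.4 and 109 and 103, 101, 106 and 101 CPM after 24 hours, with fold changes of -0.092 (SE 0.098, edgeR FDR 0.540) and 0.014 (SE 0.043, edgeR FDR 0.852). The E11.25 values of Adam17 were 89.9, 103, 97.2 and 97.2 CPM and 97.3, 103, 97.0 and 100.5 CPM. Con and R2b overlapped for both genes in each exposure, and their SEs after 24 hours were among the smallest of the family.

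Of the other Adam genes, Adam9, a widely expressed sheddase, rose after 24 hours by 0.25 (SE 0.066, edgeR FDR 0.0351), and Adam5, known from sperm, by 1.37 (SE 0.26, edgeR FDR 0.0125) from 0.908 ± 0.184 to 2.35 ± 0.628 CPM (SD, n = 4). The Adam9 call was lost when any 1 litter was left out and that of Adam5 without litter 1 or 2. After 12 hours they were at 0.10 (edgeR FDR 0.446) and 0.89 (edgeR FDR 0.0742). Adam15 was at 0.23 (edgeR FDR 0.300) and 0.25 (edgeR FDR 0.0511), and was called higher after 24 hours with the block (edgeR FDR 0.0139). Adam1a and Adam8 were called in neither, and Adam4, too low to test after 12 hours and at E11.25, was at -0.70 (edgeR FDR 0.195). Of the Adam1a exon bases, 63.7% are shared with another annotated gene of the same strand and 24.0% with Mapkapk5, and 20.6% of the Adam15 exon bases are shared with a gene of the opposite strand, so these counts are uncertain.

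Mmp14, the membrane enzyme that activates Mmp2, lies on chromosome 14 (54431612 to 54445364, plus strand) and rose in both earlier exposures. After 12 hours it was at 201, 208 and 235 in con and 311, 283 and 300.3 CPM in R2b. After 24 hours it was at 198, 176, 146 and 202 and 276, 270.2, 233 and 256 CPM. Con and R2b were apart in both, with rises of 0.50 (SE 0.095, edgeR FDR 0.00510) and 0.53 (SE 0.10, edgeR FDR 0.0122). The call was lost without litter 1 after 12 hours and without litter 1 or 2 after 24 hours. At E11.25 Mmp14 was at 264, 204, 214 and 210.2 CPM in libraries labelled con and 218, 269, 231 and 238 CPM in those labelled R2b.

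Mmp15, a membrane-type enzyme close to Mmp14 in structure, lies on chromosome 8 (95352268 to 95375080, plus strand). Its con values were 119, 149.8 and 143 CPM after 12 hours and 123, 125, 132 and 108 CPM after 24 hours. The R2b values were 205, 159 and 175 CPM and 146, 149, 158 and 138 CPM, above con in every litter. The rises were 0.41 (SE 0.12, edgeR FDR 0.0341) and 0.28 (SE 0.072, edgeR FDR 0.0312). The first was lost with the block (edgeR FDR 0.0932) and, left out in turn, without litter 1 or 3, and the second without litter 1, 2 or 3. Its E11.25 values were 87.3, 107, 79.0 and 93.6 CPM in libraries labelled con and 80.9, 114, 74.0 and 81.3 CPM in those labelled R2b, which overlapped. Of the other membrane-type enzymes, Mmp16 and Mmp17 were called in neither exposure. Mmp17, bound to the membrane by a lipid anchor, was at 0.49 (edgeR FDR 0.0905) and -0.27 (edgeR FDR 0.229).

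Mmp23, a small and atypical membrane-anchored MMP on chromosome 4 (155650655 to 155653384, minus strand), was low but higher in R2b in all 7 litters of the earlier exposures. After 12 hours it was at 4.29, 4.15 and 4.74 in con and 8.27, 5.02 and 9.24 CPM in R2b. After 24 hours it was at 6.31, 6.06, 4.15 and 3.89 and 11.6, 10.5, 7.38 and 7.92 CPM. The groups were apart in both, with rises of 0.79 (SE 0.24, edgeR FDR 0.0410) and 0.88 (SE 0.22, edgeR FDR 0.0297). The block took the first below the threshold (edgeR FDR 0.0757), as did leaving out litter 1 or 3, and the second was lost without litter 1, 2 or 3. At E11.25 libraries labelled con gave 19.7, 9.30, 10.1 and 10.7 CPM and those labelled R2b 11.8, 12.9, 14.1 and 15.0 CPM, where litter 1 of con stood above all others.

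Mmp11, or stromelysin-3, is secreted in active form after cutting by furin and lies on chromosome 10 (75923222 to 75936496, minus strand). It was at 55.9, 52.2 and 63.3 in con and 102, 83.1 and 97.5 CPM in R2b after 12 hours, groups that did not overlap, a rise of 0.74 (SE 0.11, edgeR FDR 0.00184) that was lost without litter 1. After 24 hours it was at 68.7, 68.6, 51.2 and 51.6 and 81.5, 90.7, 68.5 and 65.0 CPM. It was higher in 4 of 4 litters there but the groups overlapped, and 0.35 (edgeR FDR 0.122) became a call with the litter block (0.000130). At E11.25 libraries labelled con were at 137, 84.6, 101 and 98.4 CPM and those labelled R2b at 119, 101, 113 and 107 CPM.

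Mmp2, or gelatinase A, is a secreted enzyme typical of mesenchyme. It was at 34.2, 23.3 and 56.7 in con and 52.2, 62.1 and 51.9 CPM in R2b after 12 hours, and at 46.8, 37.1, 18.8 and 100.02 and 51.7, 40.6, 22.7 and 88.2 CPM after 24 hours. Con and R2b overlapped in both exposures, with fold changes of 0.57 (SE 0.24, edgeR FDR 0.121) and 0.011 (SE 0.51, edgeR FDR 0.992). At E11.25 it was at 95.5, 68.9, 106 and 69.8 CPM in libraries labelled con and 108, 98.9, 100.2 and 70.4 CPM in those labelled R2b. After 24 hours its values went with the mesenchyme markers by litter. The sum of those 12 markers was 390, 234, 99.9 and 1424 in con and 492, 273, 119.7 and 1315 CPM in R2b of litters 1 to 4. Both sums and Mmp2 were highest in litter 4 and lowest in litter 3. This did not hold in libraries labelled R2b at E11.25, where Mmp2 was highest in litter 1 and the sum was highest in litter 3, at 883 CPM. Mmp24 had a mean of 4 counts in con after 12 hours and passed the filter through its R2b libraries, so it could only be tested if it differed, and its rise of 1.66 (edgeR FDR 0.0329) was lost with the block (edgeR FDR 0.0738) and when any 1 litter was left out. Mmp25, too low to test after 12 hours, and Mmp28 were not called, and Mmp28 was called lower after 24 hours with the block (edgeR FDR 0.0455), as was Mmp17 (0.0269).

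Among the inhibitors, Timp2, which blocks MMPs and also takes part in the activation of Mmp2 by Mmp14, rose. It lies on chromosome 11 (118301069 to 118355740, minus strand). It was at 102, 93.3 and 115 in con and 119, 142 and 126 CPM in R2b after 12 hours, and at 83.9, 79.1, 67.3 and 80.8 and 104, 107, 93.5 and 104 CPM after 24 hours. Con and R2b were apart in both, with rises of 0.34 (SE 0.11, edgeR FDR 0.0475) and 0.40 (SE 0.074, edgeR FDR 0.0108). The first was lost with the block (edgeR FDR 0.107) and when any 1 litter was left out, and the second without litter 1 or 2. At E11.25 Timp2 was at 141, 102, 123 and 110.4 CPM in libraries labelled con and 117, 137, 131 and 117 CPM in those labelled R2b.

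Timp3, which binds matrix and also blocks Adam17 and ADAMTS enzymes, and Timp1, a soluble inhibitor, were not called. Timp3 was at 50.8, 40.7 and 57.1 in con and 48.0, 48.2 and 43.4 CPM in R2b after 12 hours, and at 45.1, 39.4, 25.6 and 49.2 and 40.7, 38.9, 31.2 and 39.6 CPM after 24 hours. Its fold changes were -0.067 (SE 0.13, edgeR FDR 0.751) and -0.076 (SE 0.18, edgeR FDR 0.811). At E11.25 Timp3 was at 124, 84.6, 109 and 148 CPM and 153, 66.2, 122 and 126 CPM, above all con libraries of the earlier exposures in each library. It shares 21.3% of its exon bases with Syn3, a gene of the opposite strand, so its counts are uncertain too. Timp1 was at 4.02, 2.84 and 4.80 and 4.27, 4.46 and 4.22 CPM after 12 hours and at 3.03, 3.58, 2.075 and 6.19 and 4.15, 2.72, 2.33 and 5.63 CPM after 24 hours, with fold changes of 0.17 (edgeR FDR 0.646) and 4.9e-05 (edgeR FDR 1). At E11.25 its values were 3.88, 3.25, 4.02 and 2.48 CPM in libraries labelled con and 4.51, 5.26, 4.46 and 3.44 CPM in those labelled R2b, which overlapped.

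Markers of otic epithelium and of other cell types moved in part with the groups. After 12 hours 5 of 12 otic epithelium markers were called higher and 1 lower (4 in all with the litter block). Their median log2 fold change was 0.34, against 0.011 over all genes. Their sums did not overlap, at 4747 to 4976 CPM in con and 5205 to 6120 CPM in R2b. After 24 hours 2 were called higher and 1 lower (25.0%, against 15.6% of all genes), with overlapping sums of 2836 to 4357 CPM and 3909 to 5952 CPM. With the block 8 were called, and 40.6% of all genes. After 12 hours 2 of 12 mesenchyme markers were called higher (16.7%, against 20.0% of all genes), Lum by 1.15 (edgeR FDR 0.00423) and Dcn by 1.03 (edgeR FDR 0.00851). The 12 summed to 142 to 443 CPM in con and 296 to 482 CPM in R2b, none of the 12 being at 0. After 24 hours 0 of 12 were called in edgeR, against 15.6% of all genes, with sums of 99.9 to 1424 CPM and 119.7 to 1315 CPM. With the litter block 3 were called, against 40.6% of all genes. These were Dcn (edgeR FDR 0.000202) and Lum (0.00361) higher and Prrx2 (0.00158) lower. Of 10 endothelial markers tested only Tek was called after 12 hours (10.0%, against 20.0% of all genes), lower by -1.41 (edgeR FDR 0.0158). The endothelial sums were 18.5 to 66.0 CPM in con and 22.2 to 45.9 CPM in R2b. After 24 hours all 11 tested endothelial markers had fold changes below 0, and none was called in edgeR. With the litter block, which called 40.6% of all genes, Tek (edgeR FDR 1.96e-05), Cldn5 (0.0124) and Kdr (0.0218) were called lower. None of 8 tested blood markers was called in either exposure, and all 8 had fold changes below 0 in both. With the block after 24 hours, against 40.6% of all genes, only the embryonic globin Hba-x was called, lower (edgeR FDR 0.0426). In bulk samples fewer cells of a type and less RNA per cell cannot be told apart. The part of these markers in the protease changes was not tested. Without litter 4 of the 24-hour exposure, 15 members were again called, with Adam19 and Adamts12 in place of Adam9 and Adamts14. Litter 4 had the highest mesenchyme sum in both groups, so leaving it out does not test a difference in these markers between con and R2b.

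Genes that work with these proteases were described by lists. Of the proprotein convertases and sheddase regulators, 2 of 13 tested were called higher and 2 lower after 12 hours (30.8%, against 20.0% of all genes). With the block 2 were called in all, against 11.9% of all genes. After 24 hours 2 of 14 were higher and 3 lower (35.7%, against 15.6% of all genes). Tspan15, a tetraspanin that directs Adam10 to its targets, fell by -0.87 (SE 0.13, edgeR FDR 0.00149) and -1.16 (SE 0.12, edgeR FDR 0.00123), and Pcsk6, a secreted convertase, by -0.87 (edgeR FDR 0.0278) and -0.47 (edgeR FDR 0.0138). Furin, the convertase that activates many ADAM and MMP proenzymes, rose by 0.45 (edgeR FDR 0.0274) and 0.30 (edgeR FDR 0.00823), the first not kept with the block (edgeR FDR 0.0546). Of other extracellular proteases and inhibitors, 6 of 17 tested rose and none fell after 12 hours (35.3%, against 20.0% of all genes). After 24 hours 4 of 18 rose (22.2%, against 15.6%), and 9 were called with the block, which called 40.6% of all genes. The membrane peptidase Mme rose from 135 ± 35.6 to 246 ± 35.7 CPM (SD, n = 3) and from 100.3 ± 29.1 to 337 ± 39.1 CPM (SD, n = 4), by 0.89 (edgeR FDR 0.00606) and 1.75 (edgeR FDR 0.00181).

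Of 19 membrane proteins known to be shed, 8 rose and 1 fell after 12 hours (47.4%, against 20.0% of all genes). After 24 hours 8 rose and none fell (42.1%, against 15.6% of all genes). The median log2 fold changes were 0.44 and 0.31, against 0.011 and -0.010 over all genes. The adhesion molecule L1cam rose by 1.35 (edgeR FDR 0.000557) and 1.28 (edgeR FDR 0.0138), Cdh2 by 0.36 (edgeR FDR 0.0386) and 0.75 (edgeR FDR 0.00729), and Notch1 by 0.60 (edgeR FDR 0.0118) and 0.20 (edgeR FDR 0.0285). Syndecan Sdc1 fell after 12 hours by -0.35 (edgeR FDR 0.0427). With the litter block 6 of the 9 were still called after 12 hours, the calls of Cdh2 (edgeR FDR 0.0770), Sdc1 (0.0861) and App (0.0707) being lost, and 13 genes of the list were called after 24 hours. The block called 11.9% of all genes after 12 hours and 40.6% after 24 hours. Of 16 tested matrix substrates 7 rose and 2 fell in each exposure (56.2%, against 20.0% and 15.6% of all genes). The 2 that fell were versican, Vcan, a substrate of Adamts1 and Adamts15, by -0.43 (edgeR FDR 0.00704) and -0.46 (edgeR FDR 0.0438), and fibronectin, Fn1, by -0.58 (edgeR FDR 0.0238) and -0.58 (edgeR FDR 0.0156). Sparc rose by 0.89 (edgeR FDR 0.00195) and 0.97 (edgeR FDR 0.0118), and Lamb1 by 0.57 (edgeR FDR 0.00208) and 0.69 (edgeR FDR 0.000768). At E11.25 no gene of these 4 lists was called.

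The difference between the effects of the 2 exposures that end at E10.25 was tested directly. No member was called for it in edgeR, as was 0% of all genes. At an unadjusted p under 0.05 there were 5 members of 48 (10.4%), against 12.2% of all genes, and DESeq2 called 0. For Adamts15 the 24-hour effect minus the 12-hour effect was 0.20 (SE 0.38, edgeR FDR 0.876), and for Adam12 it was -0.18 (SE 0.30, edgeR FDR 0.847). A call in one exposure and not the other, as for Mmp11, Adam5 or Adamts8, was therefore not accompanied by a called difference (Mmp11 FDR 0.482, Adam5 FDR 0.662, Adamts8 FDR 0.359 in edgeR).

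At E11.25 no member was called over the 4 litters, and none had an unadjusted p under 0.05, against 175 of all 15203 genes tested. DESeq2 also called 0 members. Litter 1 stood apart from the other litters. All 9 members that changed the same way in the earlier exposures went the opposite way in litter 1, while 8 of 9 kept their direction in each of litters 2, 3 and 4. The same held for the 1293 genes called in both earlier exposures apart from Fgfr2 and Ighg1, with 7.5% in the earlier direction in litter 1 and 97.6%, 90.2% and 92.2% in litters 2 to 4. Without litter 1, 0% of genes were called in edgeR, and 10 of 46 members (21.7%) had an unadjusted p under 0.05, against 16.0% of all genes. With the litter as a block and without litter 1, 3 of 46 members were called, against 4.04% of all genes. These were Adamts9 at 0.36 (SE 0.05, edgeR FDR 0.0261), Adamts1 at -0.55 (SE 0.09, edgeR FDR 0.0309) and Mmp23 at 0.50 (SE 0.09, edgeR FDR 0.0416), and Adamts9 was not called in the earlier exposures.

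Leaving out litters 1 and 3, an alternative chosen after seeing the data, left 2 litters. No member of 47 was then called in edgeR, against 0.0329% of all genes, with 12 members (25.5%) at an unadjusted p under 0.05, against 11.1% of all genes. With the block as well, which leaves 1 residual degree of freedom, 7 of 47 were called, against 5.77% of all genes: Adamts15, Adam22, Adamts5, Adamts9 and Mmp24 higher and Adamts1 and Mmp17 lower. There Adamts15 was at 1.20 (edgeR FDR 0.0152) and Adamts1 at -0.68 (edgeR FDR 0.0137). Mmp24 was too low to test over the 4 litters, where only 1 R2b library was above the cut on low counts. Its log2 ratio, with 0.5 CPM added, was 0.36 in litter 2 and 1.89 in litter 4. The effect at E11.25 minus that after 24 hours was called for no member and 0% of genes in edgeR. It had an unadjusted p under 0.05 for 10 of 48 members (20.8%), against 8.57% of all genes, and those p-values rest on the labels of litter 1 too. DESeq2 called 2 members for it, Adam12 at 1.08 (FDR 0.0300) and Adamts17 at -0.77 (FDR 0.0439).

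**Figure D4:**
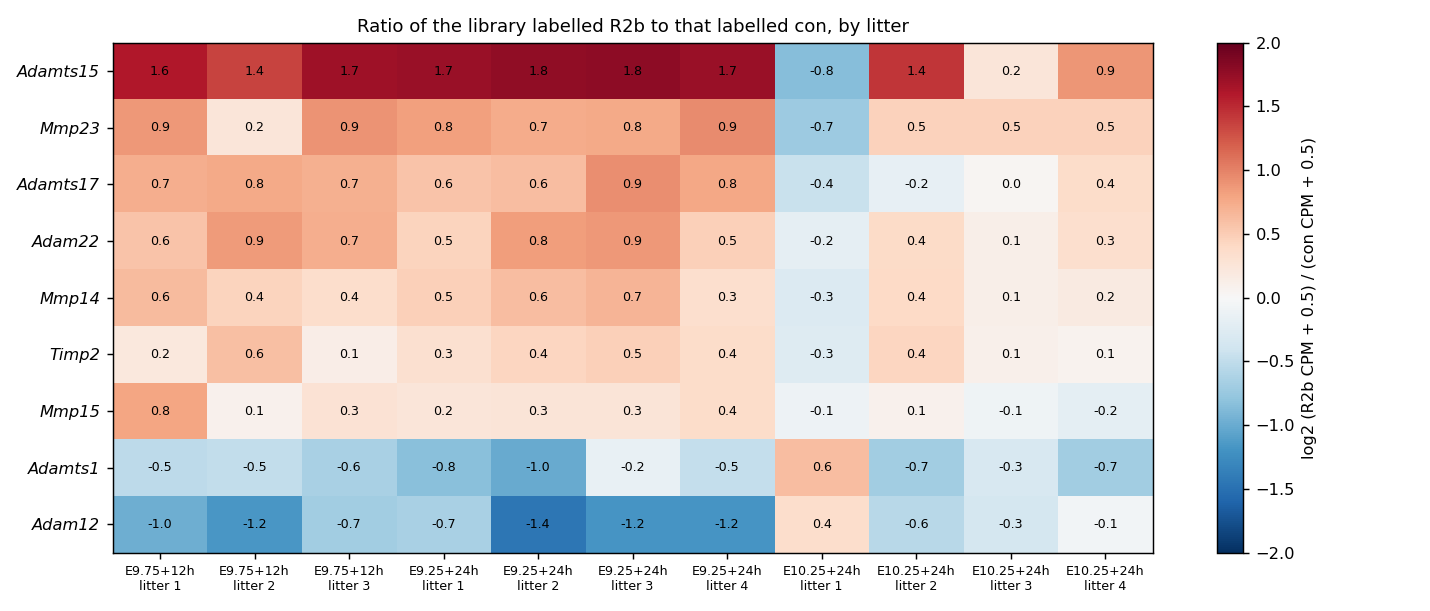
Log2 ratio of the library labelled R2b to the library labelled con of the same litter, with 0.5 CPM added to each, for the 9 members called in both earlier exposures; red is higher and blue lower in the library labelled R2b. The 7 litters of the earlier exposures have 1 direction per gene, and litter 1 at E11.25 has the opposite colour in all 9 rows.

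Several members differed in level between con pools of the 2 end stages, without a test, because the library names of each exposure begin with a number of their own, and stage and that number cannot be told apart. In 11 of 48 members every con library ending at E11.25 lay above all 7 con libraries ending at E10.25, and in 2 members every one lay below. Over all genes of the table, taken from CPM without the scaling for library composition, this was so for 13.3% and 6.2%. Of the 11 higher members, the highest by ratio of medians were Adamts16 at 25.2 against 5.86 CPM, Adamts5 at 29.4 against 7.17 CPM, Adamtsl1 at 12.4 against 3.61 CPM and Timp3 at 117 against 45.1 CPM. Mmp23 and Adamts17, which rose in R2b at E10.25, were also in the higher group, at 10.4 against 4.29 CPM and 34.9 against 18.8 CPM. Lower at E11.25 were Mmp15 at 90.4 against 125 CPM and Adam9 at 60.9 against 69.8 CPM. Without litter 1, whose library labelled con goes against its label, there were again 11 in the higher group, and 3 in the lower one. Without litter 3 as well, whose con library holds transgene reads too, a choice made after seeing the data, there were 12 and 3, Adamts1 being added to the higher group. The share of all genes was not taken for these smaller sets. Fewer libraries make the criterion easier to meet, so the added members show no change by themselves.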

How the data were processed

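The authors deposited raw read counts per Ensembl gene as whole numbers. Per the submitters' processing notes the genome build was mm10 and the aligner Novoalign 2.08.03; the counting tool, its use of strand, the annotation and any gene filter are not given in the sources used here. Columns were joined to samples by the library number in the titles. Of 24 samples 22 had a column, 2 columns naming no sample were not used, and 2 samples were not analysed here. Symbols, positions and exon lengths came from GENCODE M21 (GRCm38), which named 15522 genes and left 214 without a symbol, and promoters from RefSeq.

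Tests used edgeR 4.0.16 in R 4.3.3 (filterByExpr, TMM, glmQLFit, glmQLFTest; prior count 0.125), each exposure alone, with Benjamini-Hochberg adjustment over all genes; standard errors were derived from the F statistic. Differences of effects were contrasts over all 22 libraries. Litters are pairs by the labels, since both pools came from the same female. Same-litter correlations of deviations from the group mean, across genes, were -0.076, -0.232 and -0.239 in the 12-hour exposure, 0.362 to 0.730 in the 24-hour one, and -0.103, 0.370, 0.297 and 0.280 among E11.25 litters. Between different litters they were -0.115 to 0.311 in the 12-hour exposure, so for 12 hours the pairing rests on the labels alone. No 2 libraries were duplicates (chi-square per degree of freedom of 5.75 to 47.3 over 30 pairs within groups). The reads carry no molecular identifiers. One list of markers is not reported here. The members and gene lists were chosen with earlier results of these data known. Values in every library were given for members called in both exposures ending at E10.25, the 5 of smallest FDR per exposure, the Timp genes, Adam10, Adam17, Mmp2 and Mmp14; at most 4 genes per other list were named. Alternatives were median-of-ratios scaling, other count filters, the litter block, DESeq2 1.42.0, a pooled fit, robust dispersion and leaving out litters or pools. The test was checked on simulated data.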

Additional observations from a re-analysis of the deposited data

Results flagged for a closer look

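Of 60 groups of 4 libraries, taken over the 15 members given by library, 2 held a value far from the other 3 by Dixon's criterion, which chance meets in about 1 in 20 groups. Both were in the library labelled con of litter 1 at E11.25, 1 of the 2 libraries labelled con there that hold transgene reads. Mmp14 was at 264.01 CPM there, against 203.63 to 213.53 CPM in the other libraries labelled con. Mmp23 was at 19.698 CPM, against 9.3046 to 10.722 CPM.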

How the results depend on the processing

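Counts of called members moved most with the litters. After 12 hours the main count of 13 (20.0% of all genes called) became 7 with the litter as a block (11.9% of all genes). It was 1 to 16 when a litter or pool was left out (with or without the block). After 24 hours the count of 15 (15.6% of all genes called) became 25 with the block (40.6% of all genes). It was 2 to 25 when a litter or pool was left out. At E11.25 the count of 0 ranged from 0 to 3 on leaving out a litter or pool. It was 7 without litters 1 and 3 with the block (5.77% of all genes), an alternative chosen after seeing the data. For the difference between the 24-hour and 12-hour effects the count of 0 ranged from 0 to 3 on leaving out a litter; the 3, without litter 2 of the 12-hour exposure, were Adam10, Adam11 and Adamts7. For the effect at E11.25 minus that after 24 hours it ranged from 0 to 1 (Adamts15, without litter 2 at E11.25), and DESeq2 gave 2. The ranges on leaving out a litter or pool stand without shares of all genes, so they show nothing particular to the members. Fewer libraries enter the fits that leave some out, and otherwise the cause was not tested.

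No fold change of a called member reversed under any alternative run after 12 or 24 hours. Uncalled fold changes at E11.25 crossed 0 when a litter or pool was left out: Adam12 ranged from -0.31 to 0.036, Adamts17 from -0.20 to 0.12, Mmp15 from -0.21 to 0.018, Mmp23 from -0.010 to 0.50 and Timp2 from -0.030 to 0.22. Adamts17 was also at 0.13 without litters 1 and 3, with and without the block (0.12592 and 0.12837). Adamts15 kept its call in 19 of 19 alternatives after 12 hours and 23 of 23 after 24 hours. Median-of-ratios scaling and robust dispersion ended no call of a member called after 12 or 24 hours, nor did the stricter filter, which left Mmp24 and Adamts8 untested. The lowest members set the limit of depth: Adam4, Adamtsl2, Mmp24 and Mmp25 could not be tested in every exposure.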
